A study of Sparassis latifolia with 18 samples.

Results

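The mycelium of *Sparassis latifolia*, an edible brown-rot mushroom, was compared between 6 h and 1 h of exposure to pine sawdust. The comparison takes 6 of the 18 RNA-seq libraries of the series, 3 of the 6h group (T-6h-1 to T-6h-3) and 3 of the 1h group (T-1h-1 to T-1h-3), and sets the later group directly against the earlier one. The deposited table lists 1100 genes, and all of them were considered. Of these, 1066 passed the filter on low values, which asked for at least 1 FPKM in at least 2 of the 6 libraries. FPKM counts the fragments of a transcript, scaled to its length and to the number of fragments mapped in the library.

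Both groups were submerged cultures of strain SP-C to which sterilized sawdust of fresh pine wood had been added. The additions were staggered, so that the cultures were collected together, and the sawdust was filtered off before RNA extraction. The control group (CK) had 0 h of exposure, and the remaining groups had 1, 5 or 10 days of it. Each group held 3 cultures that the study called biological replicates. All cultures came from 1 strain grown in liquid medium, and all 6h and 1h cultures carried the same treatment. They differed in the time since the sawdust was added and in the culture age at its addition, which cannot be told apart. The table pairs its gene identifiers with no gene names, so the identity of the tissue could not be checked against marker genes.

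Brown-rot fungi take the polysaccharides out of wood while leaving most of the lignin behind in modified form. In *Rhodonia placenta*, another brown-rot fungus, genes for oxidative enzymes are expressed first on wood and genes for glycoside hydrolases follow. Fresh pine wood also holds resin and phenolic extractives, which many fungi tolerate poorly, and monooxygenases, dioxygenases and membrane transporters are among the proteins by which fungi modify or move such compounds.

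The 3 libraries of 6h were closer to each other than those of 1h. Across all 1100 genes of the table, Pearson's r of the log2(FPKM + 1) values was 0.991 to 0.995 between 6h libraries and 0.969 to 0.989 between 1h libraries, against 0.937 to 0.946 between a 6h and a 1h library. The median SD of a gene was 0.087 in 6h and 0.224 in 1h on the log2 scale, and the SD was larger in 1h for 823 of the 1066 genes. The study left out T-1h-3, together with CK-1, T-1d-3 and T-5d-2, after looking at correlations between libraries. Its coexpression analysis was nevertheless described as using all 18 libraries. Without T-1h-3 the median SD in 1h was 0.142. T-1h-3 lay over 2-fold above the mean of its 2 partners in 7 genes and over 2-fold below it in 52 genes, and for T-1h-1 these numbers were 18 and 14. T-1h-2 had the middle value of the 3 libraries in 66.0% of genes. The results below use all 3 libraries of 1h, and where leaving out T-1h-3 changed a call, the value without it stands beside the result.

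Between 1 h and 6 h of sawdust, 120 genes rose and 64 genes fell. A gene was called where limma, a moderated linear model fitted across all genes, found more than a 2-fold difference with a Benjamini-Hochberg adjusted p under 0.01, on the scale of log2(FPKM + 1), which understates the change of genes with a low level. FPKM is relative to all transcripts of a library, and in these bulk samples fewer cells of a kind and less RNA per cell cannot be told apart. The table holds no read counts, so the counting error of each value is not known from it. Precision is judged here from the spread between the 3 libraries of a group. The study lists the reads of each library, which were not used here. In that list T-1h-1 had the highest share of multiply mapped reads among the 6h and 1h libraries. The calls were 17.3% of the genes tested, 11.3% higher and 6.00% lower in 6h, and in all 184 of them the 3 libraries of 6h did not overlap the 3 of 1h. Without any threshold, the libraries of the groups did not overlap in 629 genes or 59.0%, with 6h above in 383 genes (35.9%) and below in 246 genes (23.1%). A rise over 4-fold was seen in 19 genes and a fall over 4-fold in 1, EVM0005843. A further 86 genes were higher and 66 lower in 6h with an adjusted p under 0.01 but a fold change of no more than 2.

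The balance of rises and falls depended on the scaling. The median log2 fold change over all genes was 0.10, and 65.2% of the calls were rises with the deposited values. With the median of each library set equal the calls were 97 higher and 83 lower (53.9% higher), and after quantile normalization, which moved the median fold change to -0.01, they were 86 higher and 88 lower (49.4% higher). The deposited FPKM of the 1100 genes summed to 146310, 143127 and 144250 in the 6h libraries, against 103912, 110902 and 112277 in the 1h libraries, so all 6h sums lay above all 1h sums. EVM0003720 alone made up 23.5% of the difference of 35532 between the mean sums, and EVM0008715 14.7%. Setting the medians equal takes the middle of this table to be unchanged between libraries, and quantile normalization takes its whole distribution to be so. How the 1100 genes were chosen is not stated, so these assumptions could not be checked.

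**Figure D1:**
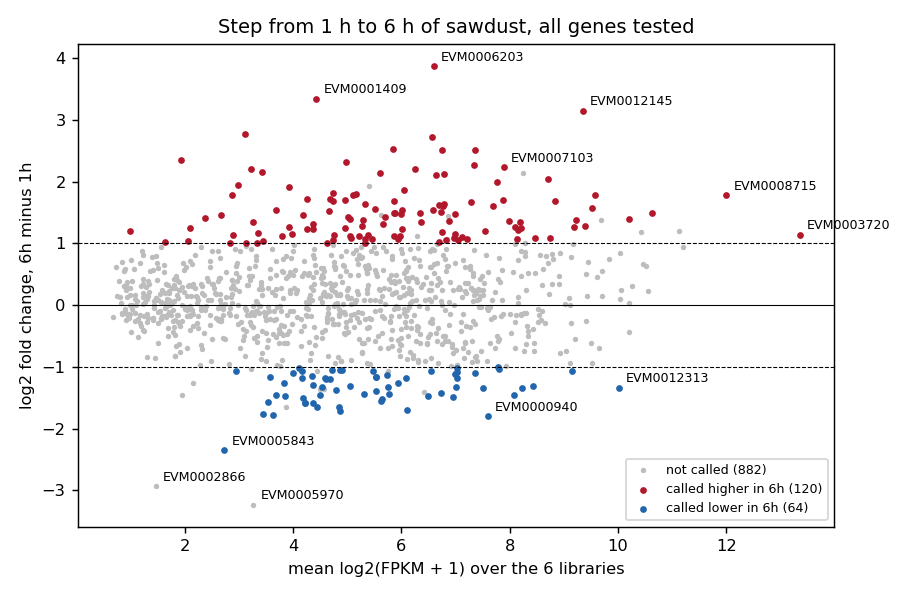
Log2 fold change of 6h against 1h (vertical axis, log2(FPKM + 1) scale) for each of the 1066 genes by its mean level in the 6 libraries (horizontal axis, mean log2(FPKM + 1)). Coloured points are the 120 genes called higher and the 64 called lower in 6h, and they lie across the range of levels up to EVM0003720 at the far right.

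The 12 largest rises ran from 2.23 to 3.87 on the log2 scale, and 11 of these genes had no product name in the sources used here. EVM0006203 had the largest of them. Its FPKM was 363, 384 and 363 in the 6h libraries and 17.7, 23.7 and 34.3 in the 1h libraries, so every 6h library was above every 1h library by a wide margin. The log2 fold change was 3.87 (95% confidence interval 3.35 to 4.40, limma adjusted p = 9.16e-05) and 4.11 without T-1h-3. The control cultures held 209 ± 88.3 FPKM (SD, n = 3), so that the level at 1 h was the lowest of the 6 groups and that at 6 h the highest.

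EVM0001409 was near its control level at 1 h and high only in the 6h group among the 6 groups. It had 66.1, 68.96 and 67.1 FPKM in 6h, against 7.02, 6.42 and 4.20 FPKM in 1h, a log2 fold change of 3.34 (SE 0.17, adjusted p = 9.16e-05). In time order the group means of the gene were 7.50 ± 2.32 in CK, 5.88 ± 1.49 at 1 h, 67.4 ± 1.46 at 6 h, 9.62 ± 3.78 at 1 day, 6.18 ± 3.53 at 5 days and 3.25 ± 0.632 FPKM at 10 days (SD, n = 3 each). EVM0011569 and EVM0007839 had the same outline, with one group above the rest. EVM0011569 averaged 243 ± 1.38 FPKM in 6h and 38.4 ± 15.9 FPKM in 1h, and its other groups averaged 43.1 to 62.4 FPKM. For EVM0007839 the means were 137 ± 6.08 FPKM in 6h and 23.7 ± 7.75 FPKM in 1h, with 20.5 to 33.3 FPKM in the other groups, where CK-1 (42.8 FPKM) was well above CK-2 and CK-3 (11.2 and 13.5 FPKM). EVM0005762 belongs beside them, with 74.7, 68.5 and 66.2 FPKM in 6h and 13.5, 11.2 and 15.01 FPKM in 1h, although it was also above CK at 10 days, where it averaged 37.9 ± 6.53 FPKM.

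EVM0012145 was the most abundant of the 12. It reached 1885, 1963 and 1950.2 FPKM in 6h, against 325, 257 and 123 FPKM in 1h (log2 fold change 3.15, SE 0.34, adjusted p = 0.000429). T-1h-3 held its lowest value, and without that library the log2 fold change was 2.74. At 1 day the libraries held 66.4, 70.7 and 329 FPKM and at 5 days 1774, 312 and 1624 FPKM. All 3 libraries of 1 day were below 6h, and T-1d-3 and T-5d-2, both left out by the study, lay apart from their partners. EVM0006112 had 343, 366 and 358 FPKM in 6h, 97.2, 78.01 and 51.4 FPKM in 1h and 19.1, 23.1 and 83.4 FPKM at 1 day, again with T-1d-3 above its partners. At 5 days it held 501, 198 and 463 FPKM, with T-5d-1 and T-5d-3 above all 6h libraries.

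In each of the 12 except EVM0007839 the 1h mean was below the CK mean and the 6h mean above it. EVM0007839 averaged 22.5 FPKM in CK and 23.7 FPKM in 1h. EVM0003229 had 394, 397 and 385 FPKM in 6h and 53.3, 64.9 and 90.7 FPKM in 1h. Its CK mean was 297 ± 99.04 FPKM, with CK-1 (412 FPKM) above all 6h libraries. At 1 day its mean was higher than in 6h, at 867 ± 103 FPKM. EVM0012045 had 20.8, 22.9 and 20.9 FPKM in 6h, 2.71, 2.56 and 1.69 FPKM in 1h and 15.4 ± 10.4 FPKM in CK. Its CK mean was low because of CK-1 (3.40 FPKM), which the study left out. CK-2 and CK-3 held 21.2 and 21.6 FPKM, within the range of 6h. The transcript Sparassis_latifolia_newGene_391 (below newGene_391), one of the 115 genes that the study's assembly added to the annotated ones, had 6.46, 8.09 and 8.37 FPKM in 6h and 0.647, 0.785 and 0.617 FPKM in 1h, where its values were below the pseudocount of 1, so its log2 fold change of 2.35 is compressed. EVM0007333 had 263, 250.4 and 256 FPKM in 6h against 35.2, 52.1 and 47.5 FPKM in 1h. It remained above CK (76.5 ± 14.2 FPKM) at 10 days (187 ± 19.5 FPKM).

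**Figure D2:**
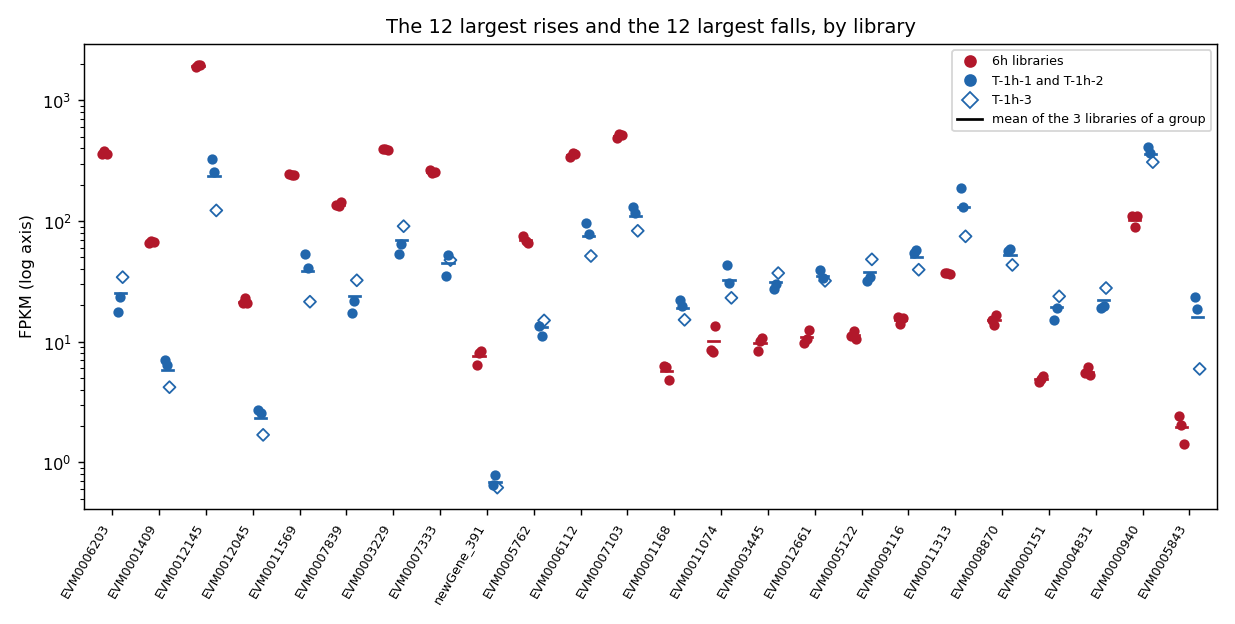
FPKM (logarithmic axis) of the 12 genes with the largest rises and the 12 with the largest falls in each 6h library and each 1h library, one point per library. The points of 6h and 1h do not overlap in any of the 24 genes, and T-1h-3 lies farthest from 6h in some genes, such as EVM0012145, and nearest in others, such as EVM0005843.

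Among the falls, EVM0000940 stood out by its level. It had 109, 88.9 and 110.2 FPKM in 6h, against 409, 366 and 308 FPKM in 1h, and the libraries of the groups were well separated (log2 fold change -1.80, SE 0.14, adjusted p = 0.00016). The control held 8.73 ± 1.75 FPKM and the group of 10 days 7.92 ± 1.38 FPKM, so the 1h group was the highest of the 6 and 6h was still above CK. EVM0005843 had the largest fall of the called genes, with 2.44, 2.03 and 1.43 FPKM in 6h, against 23.6, 18.6 and 5.95 FPKM in 1h. Its log2 fold change was -2.35 (SE 0.46, adjusted p = 0.00585) and -2.90 without T-1h-3, the lowest of the 1h libraries. With T-1h-2 left out it was no longer called (log2 fold change -2.15, adjusted p = 0.0268). The same held without any one of the 6h libraries (adjusted p = 0.0202 to 0.0257). Such losses were common, since of all 184 calls 40 were lost without T-1h-2 and 33 to 42 without one of the 6h libraries. Without T-1h-1 11 were lost, and without T-1h-3 17.

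The other 10 of the 12 largest falls lay between -1.78 and -1.57 on the log2 scale. EVM0011313 had 37.4, 37.2 and 36.7 FPKM in 6h and 187, 129.9 and 74.7 FPKM in 1h, and the 1h values spread over more than a doubling. It was called with all libraries (adjusted p = 0.00401) and lost the call without T-1h-2 (-1.65, adjusted p = 0.0196) or without any one of the 6h libraries (adjusted p = 0.0185 to 0.0194). EVM0011074 was called at -1.58 (adjusted p = 0.0032) and not without T-1h-2 (-1.59, adjusted p = 0.0155), T-6h-1 (-1.49, adjusted p = 0.0179) or T-6h-2 (-1.47, adjusted p = 0.0169). A set of 6 of these genes, EVM0001168, EVM0003445, EVM0012661, EVM0005122, EVM0000151 and EVM0004831, were all at low levels. Their means were 4.91 to 11.3 FPKM in 6h and 19.1 to 38.1 FPKM in 1h, against 6.94 to 14.8 FPKM in CK, so in each of them the 1h mean was above the means of both 6h and CK.

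EVM0009116 and EVM0008870 differed from those 6 in that their control level was high. EVM0009116 had 15.9, 13.9 and 15.6 FPKM in 6h and 54.6, 57.1 and 39.5 FPKM in 1h, with 62.3 ± 16.7 FPKM in CK. EVM0008870 had 15.2, 13.8 and 16.6 FPKM in 6h and 56.1, 58.3 and 43.3 FPKM in 1h, with 63.7 ± 18.2 FPKM in CK. The ratio of EVM0009116 to EVM0008870 stayed between 0.883 and 1.04 over all 18 libraries. Whether the pair shares reads through a near-identical sequence was not tested, so the split between them is uncertain.

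The 5 called genes with the highest mean level were 4 rises and 1 fall. EVM0003720 was the most abundant gene of the table in all 6 libraries, with 15439, 15807 and 15199.6 FPKM in 6h, against 5871, 6964 and 8541 FPKM in 1h. Its log2 fold change was 1.14 (SE 0.19, adjusted p = 0.0032) and 1.28 without T-1h-3 (adjusted p = 0.000334), but 0 after quantile normalization, which gives the top gene of every library the same value. It also lost the call without T-1h-2 (1.13, adjusted p = 0.0174) and without any one of the 6h libraries (adjusted p = 0.0179 to 0.0208).

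EVM0008715 had 7663, 7273 and 7758 FPKM in 6h and 3069, 2568 and 1348 FPKM in 1h, and the 1h libraries differed among themselves by more than 2-fold, with T-1h-3 lowest. The log2 fold change was 1.78 (SE 0.31, adjusted p = 0.00324), 1.43 without T-1h-3 and 0.53 after quantile normalization (adjusted p = 0.335). Without T-1h-2 it was 1.89 (adjusted p = 0.0114), and without any one of the 6h libraries the adjusted p was 0.0156 to 0.0176, so the call was lost in each case. EVM0013081 had 2674, 2634 and 2611 FPKM in 6h and 1211, 982 and 691 FPKM in 1h, a rise of 1.49 (adjusted p = 0.00132) to a level near that of CK (2782 ± 609 FPKM). After quantile normalization it was 0.87 (adjusted p = 0.0303).

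The unannotated transcript Sparassis_latifolia_newGene_289 had 2004, 1822 and 1883 FPKM in 6h and 456, 754 and 1095 FPKM in 1h (log2 fold change 1.40, SE 0.30, adjusted p = 0.00866). Its 1h libraries spread over more than 2-fold, and the call was lost without T-1h-2 (1.43, adjusted p = 0.0304) or any one of the 6h libraries (adjusted p = 0.0311 to 0.0374). EVM0012313 was the only fall among the 5. It had 659.6, 646 and 638 FPKM in 6h, against 1676, 1653 and 1585 FPKM in 1h, with very close values within each group (log2 fold change -1.34, SE 0.09, adjusted p = 0.00014). At 1 day the gene was lower still, with a mean of 146 ± 64.3 FPKM. Taking all 120 called rises, they made up 35.2% to 35.8% of the summed FPKM in the 6h libraries and 17.3% to 17.8% in the 1h libraries. The 64 called falls made up 2.55% to 2.58% in 6h and 7.79% to 9.07% in 1h. These shares describe genes that were chosen by the same comparison.

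A product name was given in the study for 69 genes, of which 53 are in the table, and all 53 were tested. Of these, 6 rose, none fell and 47 were not called, which is 11.3% called, against 17.3% of all genes. At an unadjusted limma p under 0.05, 18 were higher and 7 lower in 6h, against 344 higher (32.3%) and 237 lower (22.2%) of all 1066 genes, or 54.5% in either direction. The median log2 fold change of the 53 was 0.19, against 0.10 for all genes. Many of the 69 were named because they changed under sawdust in these same samples, so this count is not independent evidence of a direction. Without T-1h-3, 8 rose and 3 fell, against 19.9% of all genes called. The counts in the functional groups that follow stand against the same shares and were not tested against them. They cover only genes with a product name, so the table may hold further members of each group.

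The flavin-binding monooxygenase EVM0007103 had the largest rise of the annotated genes. Enzymes of this family use a flavin to add an oxygen atom to small molecules. EVM0007103 had 486, 532 and 517 FPKM in the 6h libraries, against 130.5, 117 and 83.1 FPKM in the 1h libraries, and every 6h library was over 3 times as high as any 1h library. The log2 fold change was 2.23 (95% confidence interval 1.82 to 2.64, adjusted p = 0.00016) and 2.04 without T-1h-3. The other 3 members of the group in the table were not called. EVM0002057, annotated alike, had 71.2, 71.5 and 75.02 FPKM in 6h and 34.3, 44.9 and 51.8 FPKM in 1h (0.74, adjusted p = 0.00749), which passed on p but not on fold change. The salicylate hydroxylase-like EVM0008017 had 547, 535 and 525 FPKM in 6h and 324, 424 and 559 FPKM in 1h, with T-1h-3 above the 6h values and its partners below them. Its CK mean was 74.5 ± 9.24 FPKM, so both groups were far above the control. EVM0013062 was low in both, with means of 6.01 ± 0.286 FPKM in 6h and 6.27 ± 0.598 FPKM in 1h.

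Of 4 dioxygenases and cupins, homogentisate dioxygenase EVM0000309 rose. This enzyme opens the aromatic ring of homogentisate in the breakdown of tyrosine and phenylalanine. It had 187, 187 and 188 FPKM in 6h, against 58.3, 83.96 and 121 FPKM in 1h, a tight group against a spread one (log2 fold change 1.15, SE 0.24, adjusted p = 0.00822). Without T-1h-3, the highest 1h library, it was 1.41 (adjusted p = 0.000218). It was not called without T-1h-1 (0.89), without T-1h-2 (adjusted p = 0.0319) or without any one of the 6h libraries (adjusted p = 0.0317 to 0.0334), nor after median centring (1.05, adjusted p = 0.0161) or quantile normalization (1.04, adjusted p = 0.0122). The torulene-type carotenoid dioxygenase EVM0005840 had 35.9, 38.2 and 37.6 FPKM in 6h and 21.8, 22.02 and 26.4 FPKM in 1h (0.65, adjusted p = 0.00271) and did not pass the fold threshold. The oxalate decarboxylase-like cupin EVM0010362 had 34.6, 33.7 and 40.2 FPKM in 6h and 22.9, 39.7 and 66.7 FPKM in 1h, where the 1h values ran from below to above those of 6h. The TauD-family enzyme EVM0008301 had means of 9.51 ± 0.286 FPKM in 6h and 10.9 ± 0.41 FPKM in 1h.

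None of the 3 enzymes in the group of hydrogen peroxide metabolism was called by limma, and 1 had an unadjusted p under 0.05, against 17.3% and 54.5% of all genes. GMC oxidoreductases pass electrons from alcohols or sugars to oxygen or other acceptors, and catalase breaks hydrogen peroxide down. The GMC oxidoreductase EVM0000788 had 485, 494 and 502 FPKM in 6h and 318, 383 and 494 FPKM in 1h (0.33, adjusted p = 0.139), and T-1h-3 lay within the range of 6h. The pyranose dehydrogenase-like EVM0010522 had 210.4, 205 and 208 FPKM in 6h and 171, 192 and 232 FPKM in 1h, with T-1h-3 above and the others below 6h. Catalase EVM0011998 had 7.73, 10.3 and 9.17 FPKM in 6h and 7.07, 7.19 and 6.82 FPKM in 1h (0.32, adjusted p = 0.0855). The nitronate monooxygenases EVM0012859 and EVM0003801, which oxidize nitroalkanes, were at 0.20 and -0.14 and were not called.

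The glucose transporter EVM0007546 rose, alone among the 5 transporters of the table that have a product name. It had 1286, 1252 and 1247 FPKM in 6h, against 274, 419 and 664 FPKM in 1h (log2 fold change 1.57, SE 0.30, adjusted p = 0.00505). T-1h-3 was again the 1h library nearest to 6h, and without it the log2 fold change was 1.89 (adjusted p = 0.000121). The call was lost without T-1h-2 (1.56, adjusted p = 0.0223) or without any one of the 6h libraries (adjusted p = 0.0214 to 0.0238). The CK libraries held 1903, 675 and 668 FPKM, and CK-1, left out by the study, was the only one above the 6h level. The other sugar transporters had overlapping groups, with 18.99, 18.8 and 22.4 FPKM in 6h and 17.98, 16.4 and 22.2 FPKM in 1h for EVM0001060, and 13.7, 15.3 and 14.7 FPKM in 6h and 21.2, 14.9 and 11.97 FPKM in 1h for the maltose permease-like EVM0012432. The major facilitator proteins EVM0009679 (0.52) and EVM0005770 (-0.27) were not called.

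Of 3 secreted proteins, a cerato-platanin and a serine-rich protein rose, against 11.3% of all genes, and the aspartic protease EVM0010008 was not called (0.35, adjusted p = 0.0684). Cerato-platanins are small cysteine-rich proteins of the fungal cell wall and culture fluid. The cerato-platanin EVM0010971 had 468, 403 and 432 FPKM in 6h, against 161, 184 and 219 FPKM in 1h (1.21, SE 0.14, adjusted p = 0.000473), and it was called under every alternative tried. The extracellular serine-rich protein EVM0005939 had 215, 206 and 221 FPKM in 6h and 75.1, 95.2 and 147 FPKM in 1h (1.07, SE 0.23, adjusted p = 0.0091). Its call was lost without T-1h-1 (0.85), without T-1h-2 (adjusted p = 0.0372) and without any one of the 6h libraries (adjusted p = 0.0317 to 0.0368), and also after median centring (0.97) or quantile normalization (0.98). The glutaminase A-like EVM0001037 had 892, 908 and 905 FPKM in 6h and 334, 356 and 439.8 FPKM in 1h (1.27, SE 0.13, adjusted p = 0.000298), and of the alternatives tried was under the fold threshold only after quantile normalization (0.97). Glutaminases release ammonia from glutamine. The polygalacturonase-family EVM0007359 was the only glycoside hydrolase with a product name that was tested. It had 43.1, 47.4 and 46.1 FPKM in 6h and 40.4, 35.4 and 33.2 FPKM in 1h and was not called (0.32, adjusted p = 0.0433).

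None of 5 genes of lipid and ester breakdown was called with all 6 libraries, and 2 were called without T-1h-3 (limma; 2 had an unadjusted p under 0.05 with all 6, 1 in each direction). Over all genes 17.3% were called with all 6 libraries, 19.9% without T-1h-3 and 54.5% at that unadjusted p. The class 3 lipase EVM0000539 had 3361, 3198 and 3164 FPKM in 6h and 919.8, 1749.8 and 3031 FPKM in 1h, so that T-1h-3 was close to 6h and its partners were well below. The log2 fold change was 0.93 (adjusted p = 0.0983) with it and 1.35 (adjusted p = 0.00321) without it. The GDSL-type lipase or acetylesterase EVM0003260 had 738, 732 and 725 FPKM in 6h and 303, 422 and 609 FPKM in 1h, in the same order of libraries. It was at 0.78 (adjusted p = 0.0356) with T-1h-3 and 1.03 (adjusted p = 0.000764) without it. The carboxylesterase EVM0004404, the peroxisomal dehydratase EVM0005089 and the acyl-CoA thioesterase EVM0010738 lay between -0.31 and -0.05, and the short-chain dehydrogenases EVM0005719 and EVM0006859 were at -0.26 and -0.35, none of them called.

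In chaperone genes and 1 transcription factor gene, T-1h-1 and T-1h-2 were above all 6h libraries and T-1h-3 was below its partners. Hsp20 proteins are small chaperones that hold unfolded proteins in a soluble state, and BAG domain proteins regulate Hsp70. The Hsp20 gene EVM0001099 had 25.1, 23.8 and 22.3 FPKM in 6h, against 54.03, 56.8 and 28.6 FPKM in 1h, at -0.88 (adjusted p = 0.0284) and, without T-1h-3, -1.19 (adjusted p = 5.83e-05), which was a call. The other Hsp20 gene, EVM0006992, had 209.8, 157 and 176 FPKM in 6h and 323, 358 and 169.8 FPKM in 1h, where T-1h-3 fell within the range of 6h. It was at -0.59 with all libraries and -0.92 without T-1h-3, in neither case past the fold threshold. The BAG domain gene EVM0005606 had 72.9, 60.5 and 61.1 FPKM in 6h and 110.4, 131 and 67.1 FPKM in 1h, again with T-1h-3 inside the range of 6h (-0.61, and -0.89 without T-1h-3). The remaining stress proteins were the rhodopsin-like EVM0009931 (0.40) and the plasma membrane proteolipid EVM0003124 (0.61).

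The TEA/ATTS transcription factor EVM0006776, of the family of AbaA, which controls conidium formation in *Aspergillus nidulans*, had 123, 123 and 121 FPKM in 6h, against 325, 226 and 163 FPKM in 1h. Its groups did not overlap, and its log2 fold change was -0.90 (adjusted p = 0.0187), or -1.14 (adjusted p = 0.000592) and called without T-1h-3. Both groups were above CK, at 28.6 ± 3.68 FPKM. The zinc finger gene EVM0008764 (0.26) and the homeobox gene EVM0011849 (-0.18) were not called. The hemopexin-repeat gene EVM0006142 was the annotated gene that T-1h-3 moved most. It had 36.7, 36.6 and 35.3 FPKM in 6h and 101, 63.3 and 15.4 FPKM in 1h, with T-1h-3 below and its partners above 6h. The log2 fold change was -0.36 (adjusted p = 0.663) with it and -1.12 (adjusted p = 0.00185) without it. The EthD-domain gene EVM0008769 (-0.74, adjusted p = 0.0292) and protoglobin EVM0010191 (-0.59, adjusted p = 0.042), a heme protein of the globin family, were not called. The GTPases EVM0009521 (0.19) and EVM0012447 (-0.14) were not called. Among the other annotated genes, the membrane protein EVM0003203 (0.76) and the oxidoreductase EVM0012132 (0.70) had an adjusted p under 0.01 without a 2-fold change. The remaining 8, EVM0002907, EVM0008266, EVM0010749, EVM0010606, EVM0006217, EVM0007186, EVM0002741 and EVM0005918, lay between -0.14 and 0.65 and were not called.

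**Figure D3:**
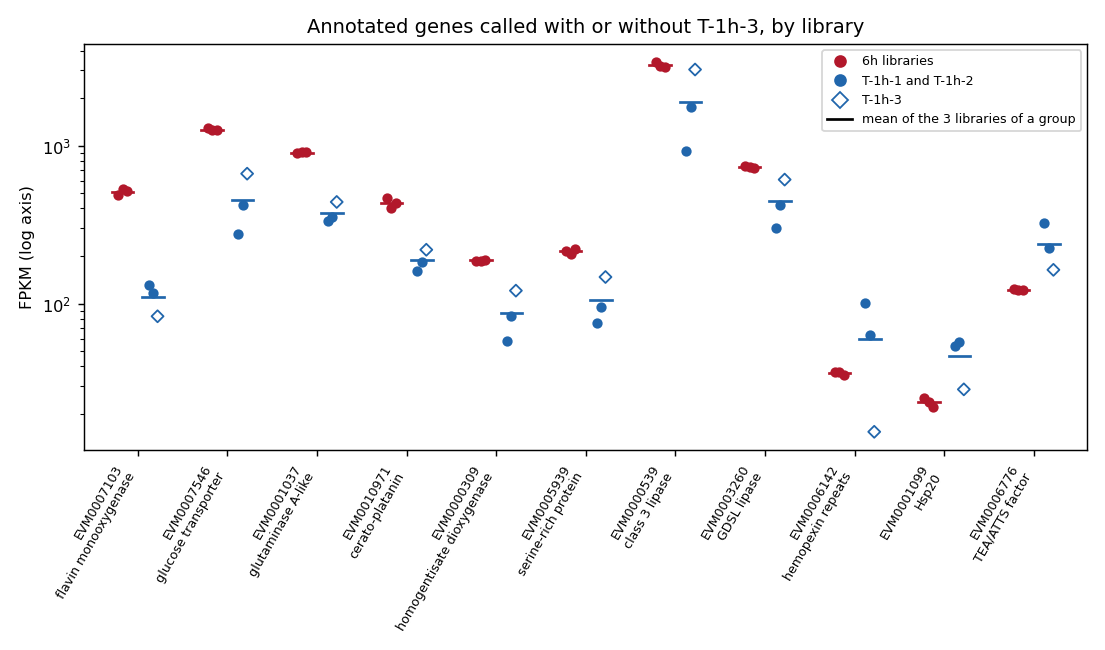
FPKM (logarithmic axis) in each library for the 11 annotated genes called with all 6 libraries or without T-1h-3, with 6h left of 1h for each gene, bars for group means and open diamonds for T-1h-3. T-1h-3 is the 1h library nearest to 6h in most of them, lies beyond 6h in EVM0006142 and is farthest from 6h in EVM0007103.

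The calls were also counted in the study's own lists. The list of genes changed at every exposure time holds 34 genes, of which 28 are in the table and were tested, and of these only EVM0008715 rose and none fell (3.57% called, against 17.3% of all genes, median -0.04). At an unadjusted limma p under 0.05, 5 were higher and 5 lower, against 32.3% and 22.2% of all genes, and without T-1h-3 there were 1 rise and 2 falls. The list from a coexpression module tied to the longest exposure holds 102 genes, of which 82 were tested, and 10 rose and none fell (12.2% called, all higher, against 11.3% of all genes called higher, median 0.26), or 13 and 1 without T-1h-3. At an unadjusted p under 0.05, 34 were higher and 7 lower, beside the same shares of all genes. The 10 were EVM0007103, EVM0002392, EVM0007546, newGene_1026, EVM0001787, EVM0001037, EVM0010971, EVM0000309, EVM0005741 and EVM0005939. The study chose both lists on these same samples, so they are not independent evidence of a direction. Among the genes of the assembly's own discovery, 103 were tested, and newGene_391, newGene_1377, newGene_1026, newGene_289 and newGene_628 rose and none fell (4.85% called). The 963 tested genes with EVM identifiers, most of them without a product name here, had 115 rises and 64 falls (18.6% called). At an unadjusted p under 0.05, 18 of the 103 were higher and 11 lower, against 326 and 226 of the 963. Without T-1h-3, 4 of the 5 remained called, and newGene_628, at 1.04 with it, was at 0.90 and under the fold threshold.

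Leaving out T-1h-3 kept the broad outcome and changed a minority of the calls. Without it 131 genes rose and 81 fell, or 212 of 1064 tested (19.9%, with 12.3% higher and 7.61% lower). Of these, 167 were called with it as well, 110 rises and 57 falls, and no gene was called in opposite directions. A total of 45 genes were called only without T-1h-3 and 17 only with it. The limma fit assumes the same variance of a gene in both groups. Without T-1h-3 the median SD was still larger in 1h (0.142) than in 6h (0.087), and 1h was then the smaller group. The adjusted p-values of that fit can therefore be too small, also for the genes called only there. EVM0013101 had the largest rise among the 45. It had 622, 615 and 669 FPKM in 6h and 51.01, 220.3 and 259 FPKM in 1h, where T-1h-1 and not T-1h-3 lay apart, and its log2 fold change was 2.14 (adjusted p = 0.0216) with T-1h-3 and 2.57 (adjusted p = 0.00533) without it. It was called without T-1h-1 as well (1.41, adjusted p = 0.000163).

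EVM0006417 had 11.3, 11.98 and 16.4 FPKM in 6h and 65.1, 52.3 and 12.1 FPKM in 1h, so T-1h-3 was inside the range of 6h and its partners far above (-1.35, and -2.08 without T-1h-3). EVM0008188 had 14.2, 13.8 and 13.9 FPKM in 6h and 62.9, 45.7 and 17.6 FPKM in 1h, again with T-1h-3 nearest to 6h (-1.35, and -1.87 without it). EVM0000233 had 52.2, 51.8 and 50.2 FPKM in 6h and 226, 145 and 81.3 FPKM in 1h (-1.41, and -1.80 without T-1h-3). EVM0000233 was also called without T-1h-1 (-1.06, adjusted p = 0.00897). The fifth gene chosen in this way, EVM0002866, was listed at 0 in all 6h libraries and at 17.03, 23.9 and 0 FPKM in 1h. An FPKM of exactly 0 can be a failed estimate, so no fold is given for it.

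The 5 largest changes that were called only with T-1h-3 were all close to 2-fold. EVM0010414 had 158, 159 and 165 FPKM in 6h and 83.4, 80.3 and 51.5 FPKM in 1h, at 1.18 with T-1h-3 and 0.97 without it. EVM0002776 was at 1.16 and just under 1.00, EVM0007739 at 1.09 and 0.93, EVM0003114 at -1.07 and -0.96, and EVM0011920 at -1.08 and -0.88, so each went under the fold threshold while keeping an adjusted p of at most 0.00251. Apart from EVM0003114, each of these calls was also lost without at least one other library.

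**Figure D4:**
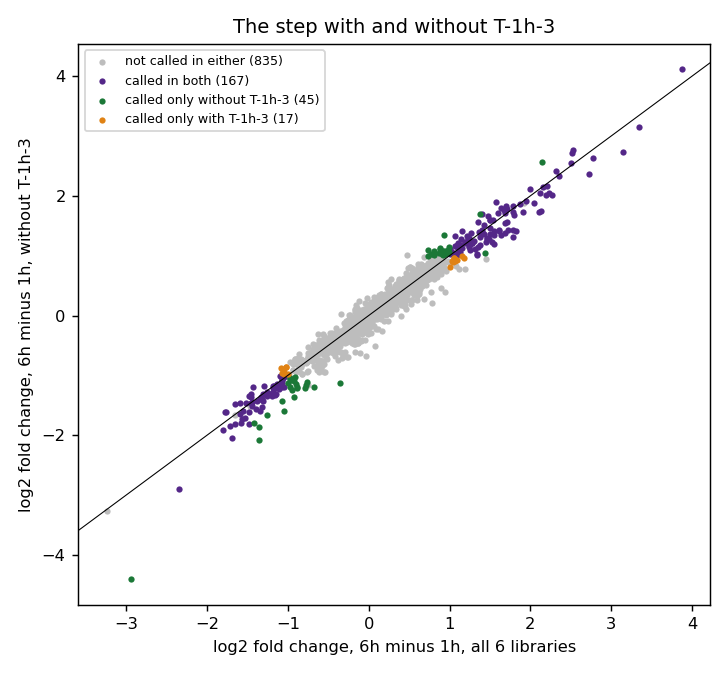
Log2 fold change of 6h against 1h without T-1h-3 (vertical axis) and with all 6 libraries (horizontal axis), one point per gene, coloured by whether the gene was called in both fits (167), only with T-1h-3 (17), only without it (45) or in neither. No gene was called in opposite directions, and the genes called only without T-1h-3 reach farther from 0 than those called only with it.

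T-1h-3 could also be read as a library that took no part in the calls of the other fit. Of the 131 genes called higher without it, 131 were higher in 6h than in T-1h-3 (median log2 difference 1.40, against 1.31 from the 2 libraries used) and 93 were over 2-fold higher. Of the 81 called lower, 75 were lower than in T-1h-3 (92.6%, median -1.06, against -1.34) and 45 were over 2-fold lower. Among all genes the direction was shared in 499 of 589 genes that were higher (84.7%) and 348 of 475 that were lower (73.3%). The 6h libraries stand on both sides of these counts, so the values are not independent. The called genes were also chosen for a difference of more than 2-fold from these 6h libraries. A shared direction was therefore likely beforehand and is not a check of the calls. The departures of T-1h-3 from its partners ran in parallel with those of the other libraries that the study left out, with r of 0.59 for CK-1, 0.40 for T-1d-3 and 0.53 for T-5d-2 across 1066 genes. The step itself, taken without T-1h-3, had r of 0.11, 0.27 and 0.16 with those departures across 1064 genes. Genes are not independent replicates, and the part of these departures in the results was not tested.

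The libraries of the later groups were not used in the comparison and show where the called genes stood afterwards. The 120 rises had a median log2 difference from CK of 0.41 at 1 day, 0.36 at 5 days and 0.08 at 10 days, with 86, 79 and 64 of them above CK. The 64 falls had a median of -0.08 at 1 day, -0.58 at 5 days and -0.88 at 10 days, with 29, 11 and 9 of them above CK. Over all genes tested these medians were -0.06, -0.14 and -0.34, with 46.3%, 46.2% and 43.6% above CK. With only the 14 libraries that the study kept, the medians were 0.37, 0.24 and 0.09 for the rises and -0.01, -0.61 and -1.002 for the falls. In the CK libraries the median level was 38.8 FPKM for the rises and 30.4 FPKM for the falls, against 26.1 FPKM for all genes.

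**Figure D5:**
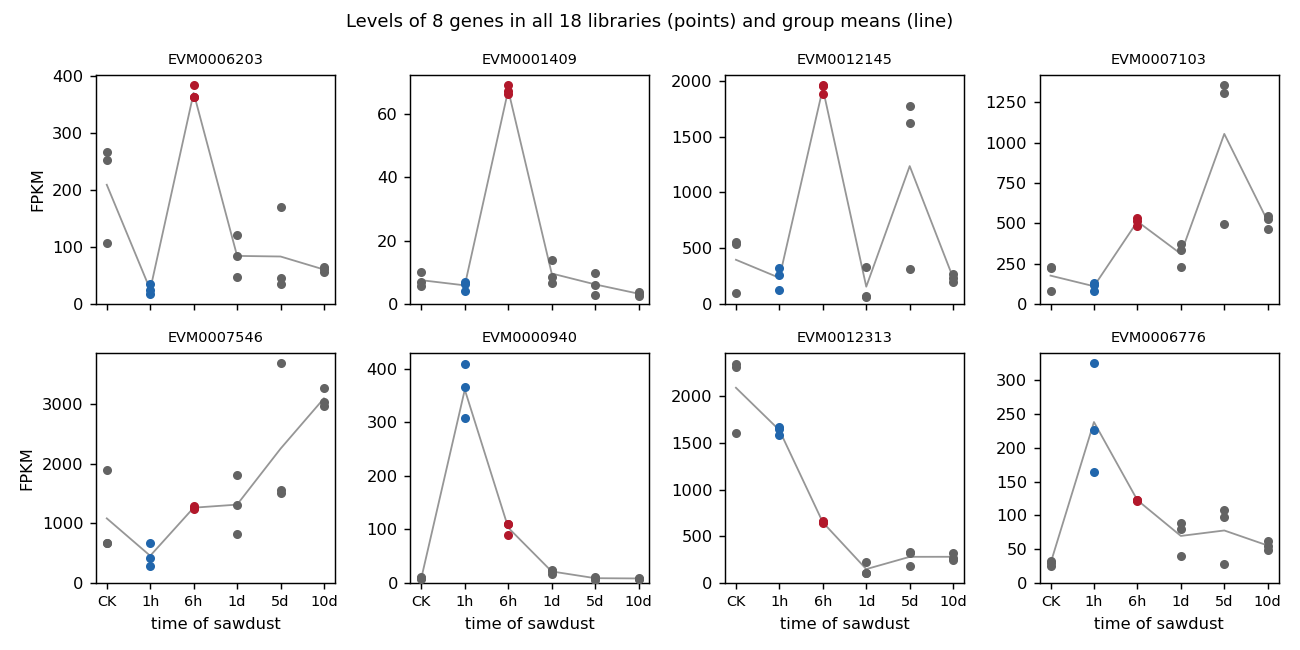
FPKM (vertical axes, linear, a scale for each gene) of 8 named genes in every library, by exposure in time order from CK to 10 days, with lines through the group means. EVM0006203, EVM0001409 and EVM0012145 are highest at 6 h, EVM0000940 and EVM0006776 at 1 h, EVM0007103 at 5 days and EVM0007546 at 10 days, and EVM0012313 is lower in every later group than in CK.

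In all, 3 genes were listed at 0 in some libraries of the comparison and at over 10 FPKM in others, and EVM0010427 and EVM0005970 were named for this after their values were seen. EVM0010427 had 24.2, 0 and 21.3 FPKM in 6h and 25.4, 24.6 and 25.1 FPKM in 1h. EVM0005970 had 0, 29.7 and 0 FPKM in 6h and 29.7, 28.5 and 27.4 FPKM in 1h. EVM0002866, given above, was the third. The libraries with values were close to each other in both genes, while T-6h-2 was at 0 in EVM0010427 and T-6h-1 and T-6h-3 were at 0 in EVM0005970. None of the 3 was called with all 6 libraries.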

How the data were processed

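RNA was sequenced from 18 mycelium cultures in 6 groups of 3, and the 6 libraries of 6h and 1h were compared. Per the methods, the authors trimmed the reads with Cutadapt, mapped them to the *S. latifolia* genome with HISAT2, assembled transcripts with StringTie and removed duplicate reads, and the submitters' processing notes also name Bowtie 0.12.2. The authors deposited FPKM per gene and library for 1100 genes, 985 with annotated identifiers and 115 assembled by the study. How these genes were chosen, the genome build, the strand setting and the unit in the file header are not given in the sources used here. The unit was taken from values the study elsewhere calls FPKM. No identifier matched the reference gene table (0 of 1100), so gene positions and sequences are not reported.

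The filter kept genes that reached 1 FPKM in 2 or more of the 6 libraries. On log2(FPKM + 1), limma 3.58.1 (R 4.3.3) was fitted to the 6 libraries with a variance trend on the mean. Calls used the thresholds of the study, a Benjamini-Hochberg adjusted p under 0.01 with more than a 2-fold change. The procedure was run on simulated data with known changes and noise that was independent between genes. That setting lacks the departures shared across genes in these libraries, so it does not cover their effect on the calls. FPKM carries no depth, so p-values measure only the spread between libraries. Each gene was given the same variance in both groups, although 1h was the more spread.

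The text names the 12 largest rises and 12 largest falls among called genes whose groups did not overlap, the 53 annotated genes of the table, the 5 most abundant called genes, and the 5 largest changes called only with and only without T-1h-3. The groups, lists and members were chosen with earlier results of these data known. Alternatives were leaving out each library, fits with all 18 libraries or the 14 that the study kept, a pseudocount of 0.1, no filter or one of 5 FPKM in 3 libraries, quantile normalization, median centring, array weights, no variance trend, the replicate number as a block and other thresholds. Quantile normalization together with leaving out T-1h-3 was added after seeing the data. Figures were drawn with matplotlib 3.10.9.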

Additional observations from a re-analysis of the deposited data

How the results depend on the processing

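The counts of rises and falls stayed within 1.5 times those given (120 and 64) except for 3 counts. Leaving out one library at a time gave 94 to 131 rises and 48 to 81 falls. The fit with all 18 libraries gave 108 and 68, the 14 libraries 133 and 82, a pseudocount of 0.1 126 and 68, no filter 118 and 64, the stricter filter 116 and 64, no variance trend 117 and 64, array weights 124 and 87, median centring 97 and 83, quantile normalization 86 and 88, and an adjusted p under 0.05 with the same fold threshold 129 and 70. The 3 were the 107 falls under quantile normalization without T-1h-3, which gave 99 rises, and both counts with an adjusted p under 0.01 and no fold threshold, 206 rises and 130 falls. The missing fold threshold is a wider rule, and the cause of the 107 falls was not tested. Array weights gave T-1h-2 a weight of 27.0 and T-1h-1 and T-1h-3 weights of 0.181 and 0.12, so that fit rested on T-1h-2 among the 1h libraries. No gene was called in opposite directions under any alternative.

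No sign was seen that the replicate number paired the samples, although correlations within groups of 3 libraries cannot show that pairing was absent. Deviations from the group means of libraries with the same number correlated at -0.13, -0.06 and -0.03 across genes, and the replicate block gave 104 rises and 57 falls, with 161 of the 184 calls kept and 23 lost.

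The sign turned in 12 named genes, none of them called with all 6 libraries, and the cause was not tested. With one library left out in turn, the log2 fold change ran from -0.24 to 0.21 in EVM0004404, -0.086 to 0.32 in EVM0009521, -0.50 to 0.25 in EVM0010362, -0.039 to 0.24 in EVM0010606, -0.23 to 0.13 in EVM0007186, -0.026 to 0.19 in EVM0010522, -1.12 to 0.20 in EVM0006142, -0.12 to 0.0027 in EVM0013062, -0.27 to 0.12 in EVM0012432 and -0.0017 to 0.21 in EVM0001060. The fit of 14 libraries gave EVM0004404 0.21, EVM0009521 -0.086, EVM0010362 0.25 and EVM0010606 -0.017. Array weights gave EVM0004404 0.078, EVM0009521 -0.088, EVM0007186 0.19 and EVM0002741 0.025. Median centring gave EVM0010606 -0.034, EVM0010522 -0.021 and EVM0001060 -0.0070, and quantile normalization gave EVM0010522 -0.034. Quantile normalization without T-1h-3 gave EVM0004404 0.17, EVM0009521 -0.11, EVM0010362 0.11, EVM0010606 -0.023 and EVM0011849 0.069.

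Precision was limited by the spread of the 1h libraries and by 3 libraries in each group. The table holds 1100 genes, so shares of genes called describe this table and not the genome, and genes low in both groups were not tested.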
